A study of Mus musculus with 3 samples.

Results

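Collagens and the other main genes of the extracellular matrix were followed across liver arrays of mice on 3 diets. The group holds 39 genes, chosen by name as collagens, other structural proteins of the matrix and enzymes that act on it. They were chosen with earlier results of these data known, so their counts are not an independent check. A probe set with a single gene in the platform annotation was found for 37 of the 39, among 18193 genes measured in this way on the arrays. Fbn1 and Loxl2 had none and were not analysed here. Of the 37 genes, 33 reached a mean signal over the 3 arrays of 76.9, the middle value of all probe sets, against 11341 of all 18193 genes. Col15a1, Lox, Thbs1 and Mmp12 stayed under this limit and are called dim below.

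The livers came from male C57BL/6J mice, a common inbred strain, and the labels name no transgene. Control mice ate a diet with 10% of its energy from fat, 20% from protein and 70% from carbohydrate. HF mice ate a high-fat diet with 60% of its energy from fat, 20% from protein and 20% from carbohydrate. HF+SFC mice ate the same high-fat diet with sodium ferrous citrate, an iron supplement, at 0.023% by weight. Feeding began at 6 weeks of age and lasted 15 weeks, whereas 21 months is the age in the labels of all 3 samples, at odds with these times. The material of all mice of a group was mixed and read on 1 array, so each group is 1 value without a spread, and no test between diets was possible. A difference between any pair of arrays therefore has no replicate check, and p-values are not given.

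The probe set of highest mean log2 signal stood for a gene, and differences are log2 ratios between the deposited signals on a pair of arrays. It is counted as higher or lower where the pair differs by 1.5-fold or more, that is, by 0.58 or more on the log2 scale. Between probe sets of the same gene, log2 ratios of HF over Control spread with an SD of 0.35 over 5020 genes and with an SD of 0.33 over the 17 matrix genes that have at least 2 probe sets above the limit. For HF+SFC over HF these SDs were 0.33 and 0.27. They describe how far probe sets of a gene differ on these pooled arrays, through noise, transcript differences and cross-hybridisation, and hold no variation between animals or between repeat arrays. Signals of different probe sets cannot be set against each other, so levels are compared only across diets. This is done within a probe set or within a sum over the same probe sets, and bright probe sets weigh most in a sum.

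The matrix of the liver is a scaffold in which fibrillar collagens give strength, network collagens and laminins form basement membranes, and small proteoglycans and glycoproteins bind to both. In a healthy liver little of it lies in the space between hepatocytes and sinusoids, and hepatic stellate cells are known as its main source once they take on a myofibroblast form. Lysyl oxidases crosslink the fibres, matrix metalloproteinases cut them, and tissue inhibitors of metalloproteinases block these enzymes.

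Matrix genes were mostly at higher signal on the HF array than on the Control array. Of the 37 genes, 19 were at least 1.5-fold higher, where 20.3% of all genes were, and 1, the dim gene Lox, was at least 1.5-fold lower, where 15.1% of all genes were. The median log2 ratio of the 37 was 0.61, a 1.52-fold difference, against 0.04 over all genes. Of the 33 genes above the limit, 16 were higher and 0 lower, against 11.3% and 5.84% of all genes above it, with 29 ratios above 0. Their median log2 ratio was 0.58, against 0.03 over all genes above the limit. Requiring at least 2 probe sets above the limit that all pass 1.5-fold left 4 higher genes of 17, namely Col1a2, Col3a1, Col4a1 and Col5a1, and 0 lower genes, against 3.29% and 1.61% of the 5020 genes.

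With the iron supplement, matrix genes were mostly at lower signal than on the HF array. None of the 37 was at least 1.5-fold higher, where 12.8% of all genes were. The lower genes were 8, namely Col1a2, Col3a1, Col5a2, Col15a1, Nid1, Eln, Lox and Mgp, where 16.6% of all genes were lower, so that over all genes, dim ones included, 8 of 37 is near the general share. Above the limit 0 of 33 were higher and 6 lower, against 2.88% and 5.33% of all genes above it. The median log2 ratio of HF+SFC over HF was -0.33, a 1.26-fold lower signal, against -0.02 over all genes, and 29 of 37 ratios were below 0. Col1a2 was the single gene of 17 for which every probe set above the limit passed 1.5-fold downward, against 0.777% of the 5020 genes, and 0 did so upward, against 0.219%. The ratios of HF over Control and of HF+SFC over HF share the HF array, so a high or low reading there moves them in opposite directions, and a link between them is not given as a result.

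Set directly against Control, the HF+SFC array had 7 matrix genes at least 1.5-fold higher, against 17.7% of all genes, and 2 lower, against 16.9%. With dim genes included, 7 of 37 is thus near the general share. The 7 were Col3a1, Col5a1, Col6a2, Lamc1, Loxl1 and the dim genes Thbs1 and Mmp12, and the 2 were the dim genes Col15a1 and Lox. Another Col6a2 probe set above the limit went the other way, at a log2 ratio of -0.65. Above the limit 5 of 33 were higher and 0 lower, against 9.2% and 6.88%. The median log2 ratio of the 37 was 0.24, against 0.01 over all genes. Col3a1 alone had every probe set above the limit at 1.5-fold or more, where 2.55% of the 5020 genes did, and 0 matrix genes did so downward, where 1.91% did.

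**Figure D1:**
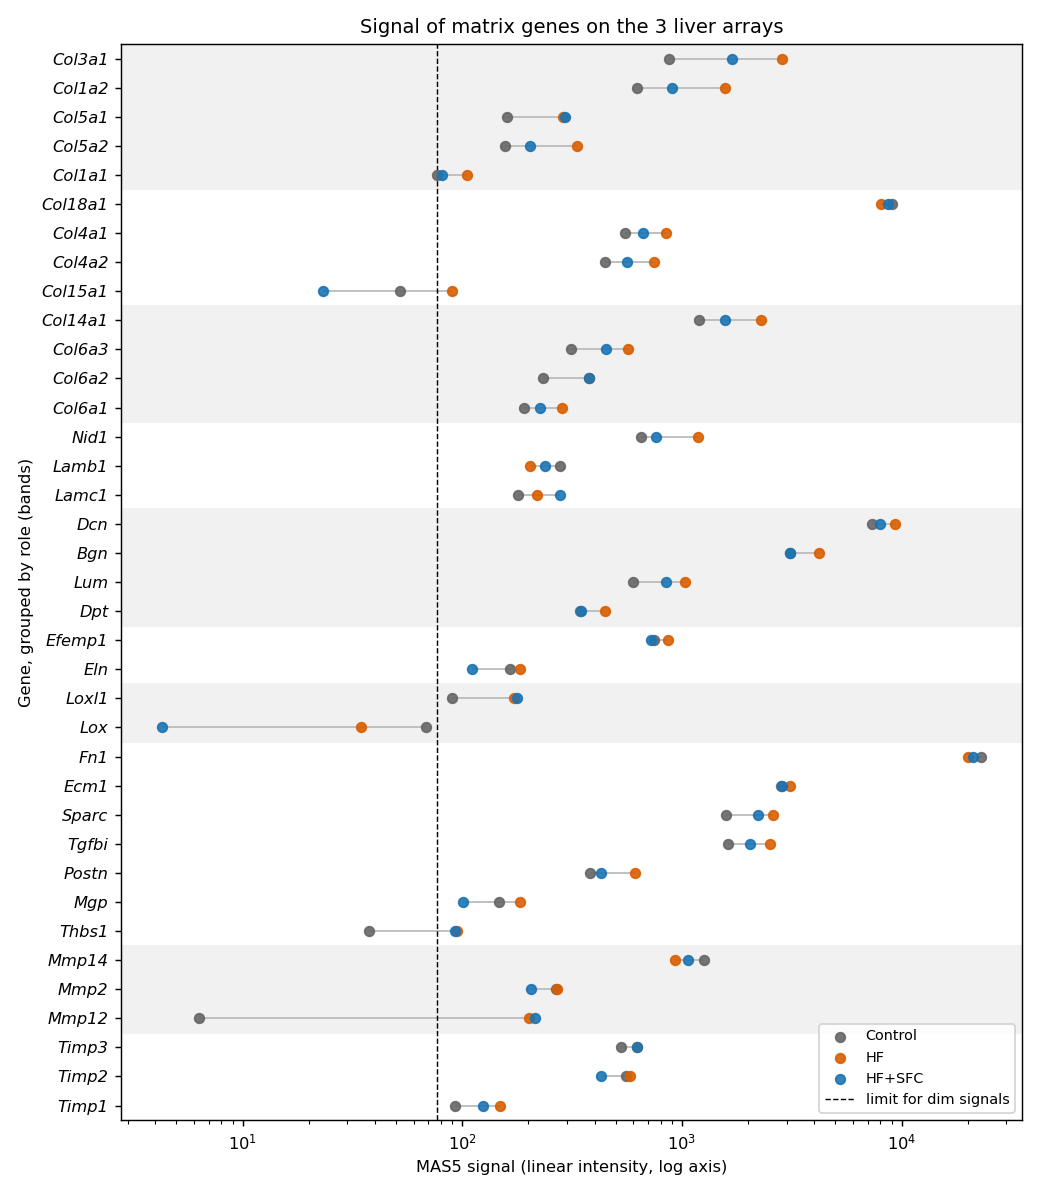
Deposited signal of the brightest probe set of each of the 37 matrix genes on the Control, HF and HF+SFC arrays, on a log axis, with genes grouped by role. Each point is 1 array of pooled material and has no error bar, and Col3a1, Col1a2 and Col5a2 sit furthest to the right in HF relative to Control among the fibrillar collagens.

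Fibrillar collagens, which assemble into the banded fibres of scar and connective tissue, held the 3 highest log2 ratios of HF over Control among the matrix genes above the limit. Of the 5 genes 4 were higher in HF than in Control, and relative to HF the HF+SFC array had 3 of them lower. The median log2 ratio of the 5 was 1.09 for HF over Control, and with the supplement it was -0.71 to HF. All 5 genes lay above Control in HF and also in HF+SFC, the latter at log2 ratios of 0.07 to 0.94.

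Col3a1, the chain of type III collagen, had signals of 877 on the Control array, 2851 on the HF array and 1685 on the HF+SFC array. HF was 3.25-fold above Control, a log2 ratio of 1.70 and the highest of the 33 genes above the limit, while HF+SFC was 1.69-fold below HF and 1.92-fold above Control. The array with the iron supplement thus lay between the other arrays. Its weaker probe set read 49.8, 118 and 108 in the same order, at log2 ratios of 1.24 and then -0.13, so the probe sets differed by more than the SD between probe sets in the size of the step from HF to HF+SFC.

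Col1a2, the second chain of type I collagen, read 623 on the Control array, 1577 on the HF array and 905 on the HF+SFC array. HF was 2.53-fold above Control and HF+SFC 1.74-fold below HF. A weaker probe set read 114, 247 and 115, with log2 ratios of 1.12 and -1.11, so that both probe sets above the limit put HF highest and differed in whether HF+SFC lay above Control or level with it. Its partner Col1a1, which contributes the other chain of the same trimer, was close to the limit at 76.6, 105 and 80.6. The Col1a1 log2 ratios of 0.46 and -0.39 did not reach 1.5-fold. A dim Col1a1 probe set read 14.6, 144 and 13.7, also highest in HF, but its values in Control and HF+SFC are too dim for a fold.

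Type V collagen, which sits in the core of type I fibres and limits their width, was higher in HF through the α1 and α2 chains. Col5a2 read 156, 332 and 202 in Control, HF and HF+SFC, 2.13-fold higher in HF than in Control and 1.64-fold lower in HF+SFC than in HF. Col5a1 read 160, 289 and 292. Its HF+SFC signal stayed level with HF on that probe set, at a log2 ratio of 0.02, whereas another probe set read 188, 287 and 207, at -0.47.

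The stretches just before the RefSeq start of Col1a2 and Col3a1, a pair of fibrillar collagens that were highest in HF, are shown with that of Mmp14, which codes for a membrane-bound collagenase and had its highest signal in Control. Each line gives 120 bases up to the start, 5′ to 3′ on the strand of the gene, from RefSeq on GRCm38.p6. Capitals mark matches to the TATA box as TATAAA, to the CCAAT box as its letters say and to the GC box as GGGCGG, on either strand, and the matches in Mmp14 overlap where CCAAT on the reverse strand meets GGGCGG. Col1a2 lies at chr6:4505498-4505617 on the + strand, Col3a1 at chr1:45311418-45311537 on the + strand, and Mmp14 at chr14:54431478-54431597 on the + strand.
Col1a2: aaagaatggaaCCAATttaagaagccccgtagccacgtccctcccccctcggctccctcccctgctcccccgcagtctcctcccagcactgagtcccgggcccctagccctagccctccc
Col3a1: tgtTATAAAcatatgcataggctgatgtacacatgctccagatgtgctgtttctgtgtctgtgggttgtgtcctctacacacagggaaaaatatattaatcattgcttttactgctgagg
Mmp14: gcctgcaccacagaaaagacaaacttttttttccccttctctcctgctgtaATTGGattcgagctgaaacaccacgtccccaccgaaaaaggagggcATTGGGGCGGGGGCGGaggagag

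The CCAAT of Col1a2 lay 109 to 105 bases before the start, and the TATAAA of Col3a1 lay 117 to 112 bases before it. Mmp14 had CCAAT on the reverse strand at 69 to 65 and at 23 to 19 bases, and GGGCGG at 19 to 14 and at 13 to 8 bases before the start. RefSeq windows of 300 bases, from 250 before to 50 after the start, were at hand for 25 of the 39 genes, 29 windows in all. Of these, 5 held TATAAA (17.2%), 10 held CCAAT (34.5%) and 18 held GGGCGG (62.1%), on either strand. The shares of all 32851 windows were 13.6%, 37.4% and 35.7%, and those of the 21262 windows of coding genes 12.6%, 38.2% and 46.2%. Outside the printed stretch, the window of Col1a2 also held GGGCGG at 205 to 200 and at 188 to 183 bases before the start. It held CCAAT on the reverse strand at bases 1 to 5 from the start. A match describes these letters in this window and is not a measured binding site.

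Type IV collagen forms the network of basement membranes, and its α1 and α2 chains join in a common trimer. Col4a1 signals were 553 on the Control array, 842 on the HF array and 666 on the HF+SFC array, and those of Col4a2 were 445, 746 and 559. Both chains were thus highest in HF, at log2 ratios over Control of 0.61 and 0.75, while HF+SFC lay below HF by less than 1.5-fold, at -0.34 and -0.42. A second Col4a1 probe set gave 0.69 and -0.71. The genes lie head to head on chromosome 8, with RefSeq starts at 11312826 on the - strand for Col4a1 and at 11312805 on the + strand for Col4a2, so that the first 22 bases of their transcripts overlap and their promoter windows share 78 bases.

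The multiplexins, collagens of vessel and basement membrane zones with interrupted triple helices, are Col18a1 and Col15a1. Col18a1, which hepatocytes are known to make and from which endostatin is cut, read 9021, 8073 and 8716 in Control, HF and HF+SFC, all within 1.12-fold of each other. Col15a1 was dim at 52.1, 89.6 and 23.3, also highest in HF. Its log2 ratio of -1.94 for HF+SFC over HF rests on signals in the range where MAS5 values are noisy.

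Type VI collagen makes beaded microfilaments around cells, from 3 chains. Col6a3 read 313, 569 and 453 in Control, HF and HF+SFC, Col6a2 read 233, 379 and 376, and Col6a1 read 191, 285 and 226. All 3 chains were above Control in HF, at log2 ratios of 0.86, 0.70 and 0.58, the last just short of 1.5-fold. HF+SFC was level with HF for Col6a2 (-0.01) and slightly lower for the other chains (-0.33 each). A second Col6a2 probe set read 283, 270 and 180 and put Control and HF level, with a log2 ratio of -0.07. Col14a1, a collagen that decorates the surface of fibrils, read 1198, 2296 and 1566, which is 1.92-fold higher in HF than in Control and 1.47-fold lower in HF+SFC than in HF. Its other probe set above the limit read 485, 691 and 460, at log2 ratios of 0.51 and -0.59, short of 1.5-fold in the first and past it in the second.

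**Figure D2:**
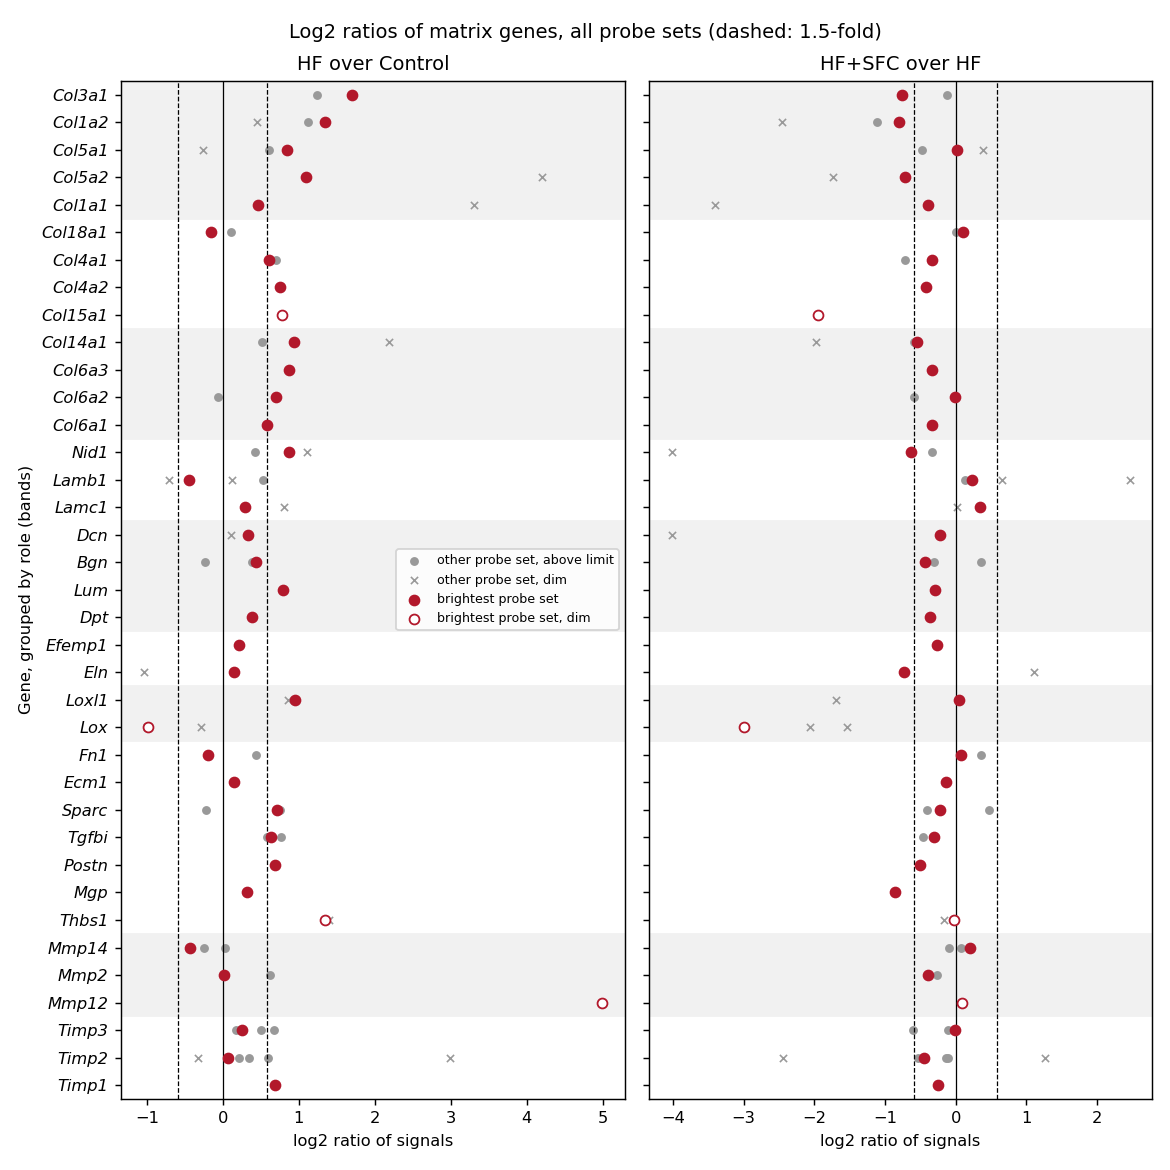
Log2 ratio of HF over Control (left) and of HF+SFC over HF (right) for each probe set of the 37 matrix genes, with the brightest probe set of each gene in red, open where dim, and the others in grey. Dashed lines mark 1.5-fold, and 19 red points lie at or past the upper line on the left against 0 on the right.

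Laminins are the heterotrimers that organise basement membranes, and nidogen links them to type IV collagen. Nid1 read 650, 1183 and 762 in Control, HF and HF+SFC, 1.82-fold higher in HF than in Control and 1.55-fold lower in HF+SFC than in HF, with 0.43 and -0.33 on the log2 scale from its other probe set above the limit. The laminin chains went other ways. Lamb1 read 278, 204 and 239, lowest in HF, while its other probe set above the limit read 94.1, 135 and 149, lowest in Control, so no direction is given for it. Lamc1 read 179, 218 and 279, highest in HF+SFC, 1.56-fold above Control.

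Small proteoglycans and dermatopontin, which bind collagen fibrils and space them, were highest in HF in all 4 cases, and 1 passed 1.5-fold. Lumican was that gene, with Lum signals of 599, 1034 and 845 and a 1.73-fold higher value in HF than in Control. Decorin, which also binds TGF-β, had Dcn signals of 7370, 9285 and 7943, a log2 ratio of 0.33 for HF over Control. Bgn, which codes for biglycan, read 3095, 4191 and 3103, and Dpt read 343, 446 and 348, so that for both the HF+SFC signal lay within 0.02 of Control on the log2 scale. The step from HF to HF+SFC was between -0.43 and -0.23 for the 4 genes, short of 1.5-fold in each. A probe set of Bgn ran the other way, at 2211, 1875 and 2408.

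The 2 elastic fibre genes measured among the matrix genes, Eln and Efemp1, stayed short of 1.5-fold in HF against Control. Eln, which codes for elastin, read 165, 183 and 110, lowest in HF+SFC at 1.66-fold below HF, and its other probe set was dim and opposite in direction. Efemp1, the fibulin that is also called fibulin-3, read 744, 864 and 721, all within 1.20-fold.

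The lysyl oxidases, which crosslink collagen and elastin, were measured through Loxl1 and Lox. Loxl1 read 89.8, 173 and 178 in Control, HF and HF+SFC, 1.92-fold above Control in HF and level with HF when iron was added. Lox was dim at 68.1, 34.5 and 4.31, with its other probe sets dimmer still, and is too dim for a fold.

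Among adhesive and matricellular proteins, which link cells to the matrix or tune their contact with it, 4 of 7 genes were higher in HF than in Control and 1, Mgp, was at least 1.5-fold below HF in HF+SFC. Sparc, a collagen-binding protein, read 1582, 2589 and 2213, which is 1.64-fold higher in HF than in Control. Tgfbi, a collagen-binding protein induced by TGF-β, read 1625, 2530 and 2041, and all 4 of its probe sets put HF highest. Postn, which codes for periostin, read 381, 611 and 429, a log2 ratio of 0.68 between HF and Control, with -0.51 from HF to HF+SFC. In these 3 genes HF+SFC lay between the other arrays. Another Sparc probe set was weak at 121, 104 and 144 that ran the other way.

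Thrombospondin 1, an activator of latent TGF-β, was dim, with Thbs1 signals of 37.4, 94.9 and 93.0. Its brightest and its other probe set had log2 ratios of 1.34 and 1.40 for HF over Control and stayed level between HF and HF+SFC, at -0.03 and -0.17. Mgp, the matrix Gla protein that inhibits calcification, read 147, 184 and 101 and was the lowest of the 33 genes above the limit for HF+SFC over HF, at a log2 ratio of -0.86. Fn1, which codes for fibronectin, read 23104, 20155 and 21238, within 1.15-fold of each other. Plasma fibronectin is made by hepatocytes. A weaker Fn1 probe set read 366, 496 and 638, lowest in Control and highest in HF+SFC, at log2 ratios to Control of 0.44 in HF and 0.80 in HF+SFC. Ecm1 read 2822, 3119 and 2847, all within 1.11-fold.

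The enzymes that cut the matrix differed among themselves. Mmp2, a gelatinase of mesenchymal cells, read 268, 270 and 205, and its other probe set read 168, 257 and 213, so the probe sets differed in whether HF lay above Control. Mmp14, which activates Mmp2 and whose upstream stretch is printed above, read 1257, 930 and 1066, lowest in HF at a log2 ratio of -0.43 to Control, with its other probe sets at 0.03 and -0.24. Mmp12, the elastase of macrophages, read 6.33 on the Control array, 201 on the HF array and 215 on the HF+SFC array. The Control signal is too dim for a fold, and both high-fat arrays were above the limit.

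Of the inhibitors, Timp1, which is often raised in fibrotic liver, read 92.2, 148 and 125, 1.60-fold higher in HF than in Control. Timp2 read 558, 582 and 428, level between Control and HF and 1.36-fold lower in HF+SFC than in HF. Its other probe sets above the limit had log2 ratios of HF over Control between 0.21 and 0.60. Timp3, which is bound to the matrix, read 527, 626 and 624, level between HF and HF+SFC. Its other probe sets gave 0.18 to 0.67 for HF over Control, and 1 of them was lower with iron, at -0.60.

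**Figure D3:**
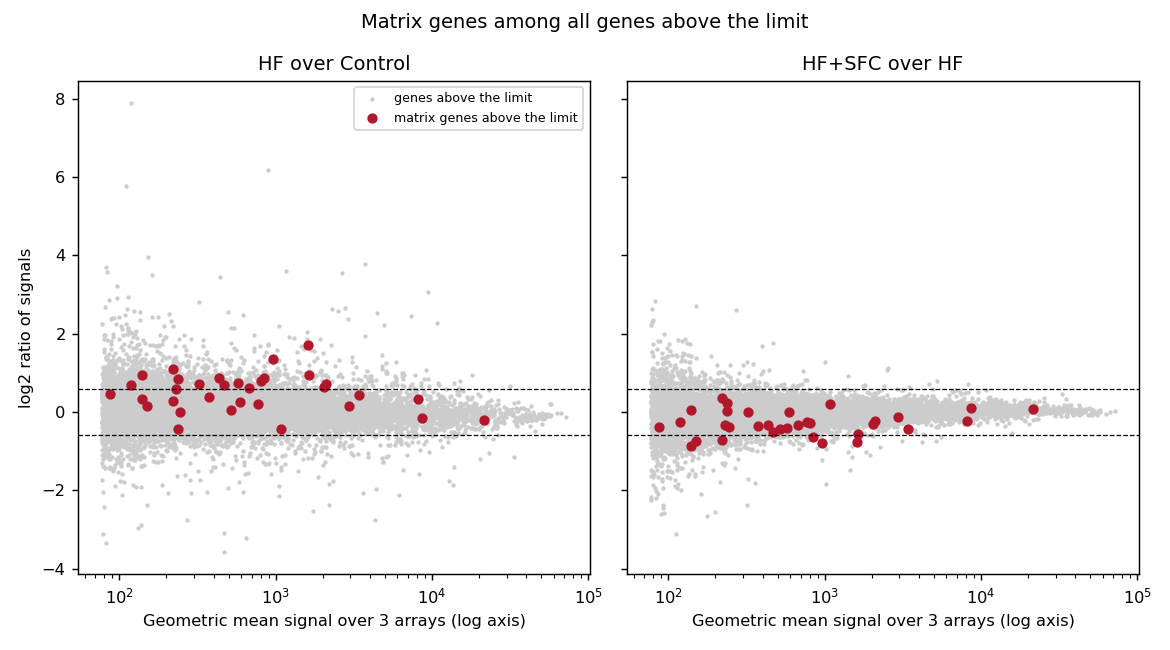
Log2 ratio plotted by geometric mean signal of the 3 arrays (log axis) for the 11341 genes above the limit in grey and the 33 matrix genes among them in red, with HF over Control in the left panel and HF+SFC over HF in the right one. Dashed lines mark 1.5-fold, and ratios of all genes spread more widely at low signal, while 29 of the 33 matrix genes lie above 0 on the left and 26 lie below 0 on the right.

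The higher values in HF were spread over the range of signals. Of the 12 brightest matrix genes, with mean signals of 837 to 21465, 6 were higher in HF than in Control, with a median log2 ratio of 0.54. Of the 12 in the middle 7 were higher, with a median of 0.64, and of the 13 dimmest 6 were higher and 1 lower, with a median of 0.58. The genes lower in HF+SFC than in HF numbered 3, 0 and 5 in the same order, with medians of -0.27, -0.33 and -0.33. Shares of all genes depend on signal as well. Those higher in HF than in Control were 6.50% in the upper 25% of signal, 11.3% in the upper 50% and 20.3% of all genes. Those lower in HF+SFC than in HF were 1.11%, 5.33% and 16.6%. The counts of bright and dim matrix genes are therefore not set against each other.

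Related genes were read from lists that hold no member, over genes above the limit, where the shares of all genes were 11.3% higher and 5.84% lower in HF than in Control, and 2.88% and 5.33% for the step with iron. The lists are short, so 1 gene more or less shifts a share by several percent. Of 6 other collagen chains, 0 were higher and 1 was lower in HF than in Control, with a median log2 ratio of -0.15. Col5a3, a further chain of type V collagen, read 590, 548 and 327, and Col16a1, a fibril-associated collagen, read 271, 238 and 128. Neither was above Control in HF, unlike Col5a1 and Col5a2, and both were at least 1.5-fold lower in HF+SFC than in HF. Col12a1 read 179, 86.3 and 116, and Col13a1 read 325, 220 and 230, so both were highest in Control. The 16 other listed chains that were measured were dim.

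Enzymes and chaperones that fold and trim procollagen stood near the centre of all genes. Of 15 above the limit, 1 was higher in HF than in Control, Pcolce, which enhances removal of the C-terminal propeptide and read 421, 767 and 543. Their median log2 ratio was 0.03, and its sign turned under quantile and lowess scaling and without probe sets for several transcripts. P4ha1, a subunit of prolyl 4-hydroxylase, read 380, 260 and 239. For HF+SFC over HF, 1 of the 15 was lower, P3h1, a prolyl 3-hydroxylase, at a log2 ratio of -0.74, and the median was -0.12. Colgalt1, which adds galactose to collagen, had log2 ratios of 0.44 and -0.05.

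Other laminins and basement membrane genes went both ways, with 2 of 9 higher and 2 lower in HF than in Control. Lama4 and Lama5, laminin α chains, had log2 ratios of 0.60 and 0.68, and Lama3 and Nid2 had -1.15 and -1.20. Nid2 and Nid1 thus lay on opposite sides of 0. In HF+SFC over HF 0 were higher and 1 was lower, Lama5 at -0.60.

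Other proteoglycans and elastic fibre genes included 4 of 12 higher and 1 lower in HF than in Control, with a median of 0.38. Relative to HF, the HF+SFC array had 1 of them higher and 5 lower, with a median of -0.44. Fbln5, a fibulin needed for elastic fibre assembly, read 160, 360 and 198. Ltbp1, which tethers latent TGF-β to the matrix, read 57.1, 117 and 76.9, and Fmod, a fibril-binding proteoglycan, read 127, 199 and 111. HF was highest for all 3, and HF+SFC lay at least 1.5-fold below it. Fbln1 was opposite, at 129, 66.8 and 114.

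Other matricellular genes held 4 of 13 higher and 1 lower in HF than in Control, with a median of 0.44. Relative to HF, the HF+SFC array had 2 higher and 4 lower, with a median of -0.21. Matn2, a matrilin, read 42.8, 152 and 90.0, Thbs2 read 85.7, 204 and 129, and Tnc, which codes for tenascin C, read 84.7, 137 and 70.7. In each of them HF was highest. Spon2 read 828, 311 and 268 and was highest in Control.

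Other metalloproteinases and inhibitors were near the shares of all genes, with 2 of 16 higher and 0 lower in HF than in Control at a median of 0.11. With the supplement 0 were higher and 1 was below HF by that much, at a median of -0.18. The higher genes were Timp4, at a log2 ratio of 0.70, and Plat, the tissue plasminogen activator, at 0.64. Mmp19 stood just under 1.5-fold at 0.56. Adam12 was the lower gene with iron, at -0.88. The sign of the HF over Control median turned in the upper 25% of signal.

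TGF-β and PDGF signalling drives matrix production in stellate cells, and its list here also holds inhibitors, such as Skil. Of the 20 genes of this list above the limit, 5 were higher and 1 was lower in HF than in Control. The median log2 ratio was 0.20 but -0.18 without probe sets for several transcripts, so no direction is given for the list. Tgfbr2, a TGF-β receptor, read 996, 1825 and 1402, Pdgfa read 287, 539 and 517, and Pdgfd read 70.9, 176 and 94.6. These 3 were higher in HF than in Control, and Pdgfd alone of them was at least 1.5-fold lower in HF+SFC than in HF. Skil, an inhibitor of SMAD proteins, read 1308, 756 and 793. In HF+SFC over HF 0 were higher and 2 lower. Of 16 matrix receptors, 1 was higher in HF than in Control, the integrin subunit gene Itga4 at 69.0, 245 and 166, and relative to HF the HF+SFC array had 1 lower, Cd44, a hyaluronan receptor, at a log2 ratio of -0.61. Sdc1, a syndecan, had -0.52 for HF over Control, and Ddr1, a collagen receptor kinase, had 0.51 for HF+SFC over HF.

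**Figure D4:**
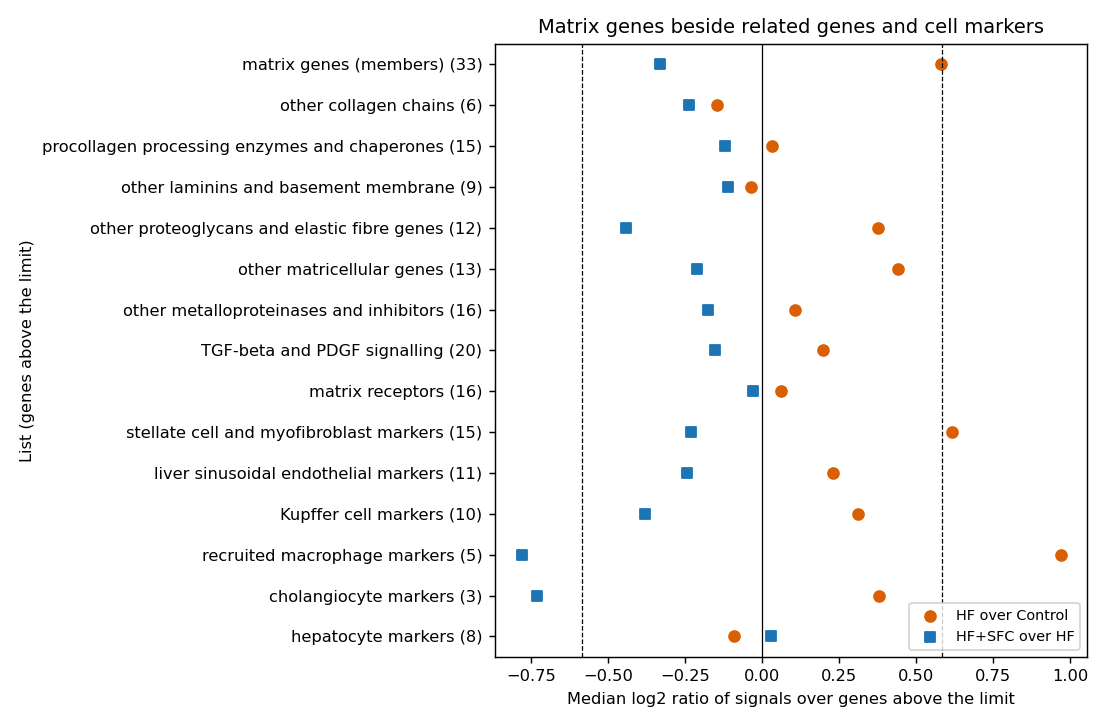
Median log2 ratio of the matrix genes, of the lists of related genes and of cell type markers, over genes above the limit, in HF over Control and in HF+SFC over HF. The matrix genes stand at 0.58 and -0.33, and stellate cell markers at 0.62 and -0.23. Markers of Kupffer cells stand at 0.31 and -0.38, of sinusoidal endothelium at 0.23 and -0.24. Those of recruited macrophages stand at 0.97 and -0.78, of cholangiocytes at 0.38 and -0.73, while hepatocyte markers stand near 0. A median of the procollagen processing, laminin, metalloproteinase, TGF-β and PDGF, receptor and hepatocyte lists changed sign under at least 1 alternative.

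The tissue label was checked against markers. Hepatocyte genes were bright on every array, with Alb at 54077, 50644 and 52202, and the summed signals of 8 hepatocyte markers were 309863 on the Control array, 287103 on the HF array and 292159 on the HF+SFC array. The median log2 ratio of these 8 was -0.09 for HF over Control and its sign turned under quantile and lowess scaling. Of the 8, 0 were at least 1.5-fold higher in HF than in Control and 1 was lower, Hnf4a at 15524, 10144 and 11107. The shares of all genes above the limit were 11.3% and 5.84%. Of 4 fat cell markers measured 3 were dim, among them Adipoq at 30.5, 5.08 and 28.7. Fabp4, a fatty acid binding protein gene that macrophages and endothelial cells also express, was above the limit at 536, 1597 and 1232, which is 2.98-fold higher in HF than in Control and 2.30-fold higher in HF+SFC than in Control. Its part in the matrix values was not tested.

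Markers of cells that make or share the matrix were read on the same 3 arrays. All 15 stellate cell and myofibroblast markers lay above Control in HF, 8 of them by at least 1.5-fold. The shares of all genes above the limit were 53.1% above 0 and 11.3% at least 1.5-fold higher. In HF+SFC 14 lay below HF, 4 of them by at least 1.5-fold, where 51.2% and 5.33% of all genes above the limit did. The median log2 ratio of the markers for HF over Control was 0.62, and 0.41 by the median over probe sets. The summed signals of the 15 markers were 15790 on the Control array, 21425 on the HF array and 17224 on the HF+SFC array. Colec11, Reln and Ecm1 were the brightest of the markers and weigh most in this sum. Acta2, the smooth muscle actin of myofibroblasts, read 565, 1041 and 536, Des read 115, 253 and 84.9, and Vim read 1001, 2371 and 1164. Lrat, which esterifies the retinol stored by stellate cells, read 720, 1104 and 909. Ecm1 belongs both to this list and to the matrix genes. In bulk liver, fewer cells of a type and less RNA per cell cannot be told apart, and the part of the markers in the matrix values was not tested.

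Markers of other cells are given beside the shares of all genes above the limit, 11.3% higher in HF than in Control and 5.33% lower with iron. Kupffer cell markers, resident macrophage genes, summed to 18138, 23409 and 18052, with 2 of 10 higher in HF than in Control and 2 below HF on the HF+SFC array by 1.5-fold or more. Sinusoidal endothelial markers summed to 12836, 14477 and 12484, with 2 of 11 higher in HF and 1 lower in HF+SFC, Lyve1 being both, at 282, 719 and 458. Recruited macrophage markers had 4 of 5 higher in HF than in Control, among them Gpnmb at 61.7, 155 and 77.2 and Itgax at 87.7, 194 and 96.5. On the HF+SFC array 3 of these 5 markers were lower than in HF, with a median log2 ratio of -0.78. Cd9, which other liver cells also express, was lower in HF than in Control at 1497, 601 and 677 and set the sum of that list to 1815, 1250 and 1070. Cholangiocyte markers had 3 of 6 above the limit, with 1 higher and 1 lower in HF than in Control and a summed signal of 324, 326 and 257. Of portal fibroblast and mesothelial markers 2 of 8 were above the limit, summing to 271, 372 and 292, and Thy1 was dim at 15.7, 100 and 90.7. Lymphocyte markers had 1 of 7 above the limit, and of 3 blood markers 2 were, including Ptprc, the common leukocyte antigen, at 543, 1094 and 607. The part of these cells in the matrix values was not tested.

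The arrays also differed in 3′ to 5′ signal ratios, a sign of RNA and labelling quality. For Actb they were 1.84 on the Control array, 1.65 on the HF array and 1.73 on the HF+SFC array. Gapdh gave 0.708, 0.680 and 0.708, and Pcx gave 4.28, 3.23 and 3.89 in the same order, lowest on the HF array for all 3 genes. Their part in the matrix values was not tested.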

How the data were processed

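Liver RNA of 3 groups was hybridised to Affymetrix mouse genome arrays, with the material of each group mixed, 1 array per group. The table that the authors deposited holds intensities on a linear scale, made with MAS5 according to their processing notes, with the version not given in the sources used here. Every array had a 2% trimmed mean of 500.004 over 45101 probe sets, which shows a common scaling target, so total signal cannot be compared between arrays. The median signal was 81.7 for Control, 87.3 for HF and 80.4 for HF+SFC. MAS5 values of dim probe sets are noisy, and 3 arrays limit the precision.

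Genes were assigned from the annotation of the platform. Of 45037 probe sets other than 64 controls, 34945 named 1 gene, 932 several and 9160 none. The Entrez identifiers of 34741 were found in a RefSeq table of GRCm38.p6, with 0 differing symbols. The brightest probe set by mean log2 signal stood for a gene, and genes in the upper 50% of signal (76.9 or more) were called above the limit. This limit uses all 3 arrays, so a gene can pass through a single bright array. Log2 ratios, counts at 1.5-fold, the threshold the study used, and medians were computed with Python 3.11.15, numpy 2.4.6 and pandas 2.3.3, and lowess with statsmodels 0.14.6. The steps were tested on simulated data. No test between groups was run.

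The 39 genes, the lists and the rules were chosen with earlier results of these data known. All 39 genes are named, and of each other list up to 4 genes above the limit with the widest log2 ratios, besides defining markers. Alternatives were quantile, median and lowess scaling (fraction 0.3), the upper 50% or 25% of signal, a floor at the array median, a pseudocount of 16, the median over probe sets, leaving out probe sets whose suffix marks several transcripts, and a 2-fold threshold. Promoter windows came from RefSeq.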

Additional observations from a re-analysis of the deposited data

How the results depend on the processing

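For HF over Control, the median log2 ratio of the 37 matrix genes was 0.44 with a floor at the array median, against 0.61. The count at least 1.5-fold higher was 11 of 20 in the upper 25% of signal and 5 at 2-fold, against 19, and the count of lower genes was 0 in the upper 50%, in the upper 25%, with the floor and at 2-fold, against 1. The lower gene, Lox, had a log2 ratio of 0.095 with the floor. Its Control and HF signals both lay under the floor, so this value is the ratio of the array medians and does not measure Lox. For HF+SFC over HF, the median was -0.27 under lowess scaling, against -0.33, and the count of lower genes was 3 of 20 in the upper 25% and 2 at 2-fold, against 8. Eln had a log2 ratio of 0.19 by the median over its probe sets. For HF+SFC over Control, the median was 0.14 by the median over probe sets, against 0.24. The higher genes were 1 in the upper 25% and 2 at 2-fold, against 7, and the lower genes were 0 in the upper 50%, in the upper 25% and with the floor, against 2. The smaller counts in the upper 50% and 25% and at 2-fold follow in part from fewer genes or a stricter threshold. The floor replaces signals under it, and the cause of the other shifts was not tested. Quantile scaling moved the shares of all genes above the limit to 9.50% higher and 7.39% lower for HF over Control, against 11.3% and 5.84%, and to 3.99% and 4.05% for HF+SFC over HF, against 2.88% and 5.33%. The log2 ratios of single genes were also followed, apart from the medians and counts above. Of these ratios, 298 of 311 stayed within the SD between probe sets for HF over Control. For HF+SFC over HF 300 of 311 did, and for HF+SFC over Control 289 of 311. This SD holds no variation between animals. The upper 50% and 25% of signal leave out genes without changing a ratio, so their share of these agreements was fixed in advance. Median centring moves all ratios of a comparison by the same small amount. The counts therefore overstate how far the ratios were put to a check. No paired analysis was possible because each group has 1 array. Low signal limits Lox, Col15a1, Thbs1 and Mmp12.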
